A study of Mus musculus with 6 samples.

Results

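Acyl-CoA thioesterases and the enzymes that take coenzyme A (CoA) apart were followed in mouse liver, in 3 libraries from mice exposed to di(2-ethylhexyl) phthalate (DEHP), a plasticiser, and 3 libraries from mice that were not. The group holds 10 genes, picked by name for their role in acyl-CoA and CoA turnover: the thioesterases Acot1, Acot2, Acot3, Acot4, Acot8, Acot12 and Acot13, the CoA diphosphatases Nudt7 and Nudt19, and the pantetheinase Vnn1. Of these, 9 were among the 41096 annotated genes of the count table, and Acot2 had no entry under its symbol. The labels give neither dose, route, duration, strain, age nor sex, and the exposed columns carry the word High. Nothing in the labels says whether each library is a different animal, and p-values thus measure only the spread between these samples, which may be technical.

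Acyl-CoA thioesterases hydrolyse a CoA-activated acid to the free acid and CoA, and different family members do so in the cytosol, the mitochondrion and the peroxisome. Free CoA is itself broken down: the Nudix hydrolases Nudt7 and Nudt19 cut CoA in peroxisomes, and further dephosphorylation yields pantetheine, which the membrane-anchored pantetheinase Vnn1 splits into pantothenate (vitamin B5) and cysteamine. Several of these genes, among them Acot1 and Vnn1, are known targets in rodent liver of PPARalpha, the nuclear receptor that the monoester metabolite of DEHP activates.

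Each library held 10042875 to 13841280 counts on annotated genes, and 12468 genes had enough counts to be tested. All 7 hepatocyte markers with an entry were detected, with summed levels of 93651 to 126322 CPM (counts relative to the TMM-scaled library total) in the DEHP libraries and 110429 to 154423 CPM in controls. Among markers of other cells, 3 were at 0 in all libraries for fat, muscle and pancreas (Myh4, Prss2 and Cpa1) and 1 for neutrophils (Ly6g). The fat, muscle and pancreas markers summed to 12.3, 11.9 and 35.5 CPM with DEHP, and to 15.8, 11.9 and 14.2 CPM in controls. In DEHP replicate 3 the fat markers Cfd and Adipoq had 17.2 and 2.12 CPM, against at most 1.34 and 0 CPM in the other libraries. Cela1, a pancreas marker, had 10.6 to 15.3 CPM throughout. The control libraries were unlike each other. The 12 interferon-stimulated genes with an entry summed to 288 to 365 CPM in the DEHP libraries, and to 3629, 2741 and 339 CPM in control replicates 1, 2 and 3. The 11 Kupffer cell and macrophage markers summed to 273 to 397 CPM in the DEHP libraries, and to 871, 800 and 257 CPM in those controls. In bulk tissue, fewer cells of a type and less RNA per cell cannot be told apart.

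All 9 measured members had a higher fitted level in DEHP livers than in control livers, and none passed the threshold. With edgeR's quasi-likelihood test and Benjamini-Hochberg adjustment over all genes, 0 of 9 had an adjusted p under 0.05, against 0.0722% of all tested genes. At an unadjusted p under 0.05, 3 members were higher (Vnn1, Acot12 and Acot13) and 0 lower, against 6.11% of all genes higher and 6.97% lower. For the same 3 genes every DEHP library lay above every control library, as for 9.17% of all genes. The median log2 fold change was 0.42 over the members and -0.03 over all genes, and 47.1% of all genes had a value above 0. Members were chosen with earlier results of these data known, so their shared direction and median are descriptions and no test. DESeq2 called 2 members, Acot12 and Vnn1, both higher in DEHP livers, where it called 0.938% of all genes higher. With no low-count filter edgeR called the same 2 members, against 1.07% of all genes higher.

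**Figure D1:**
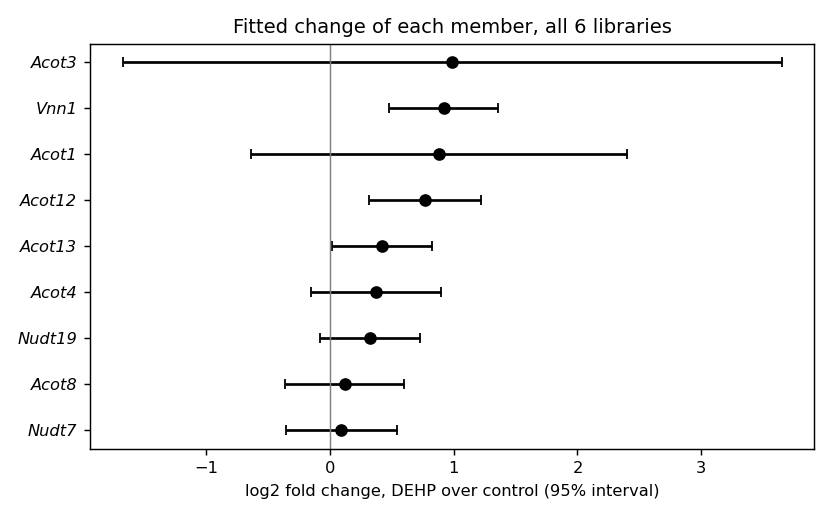
Log2 fold change of DEHP over control (horizontal axis) for each of the 9 measured members (vertical axis), with its 95% interval from the edgeR fit to all 6 libraries. All 9 points lie above 0. The intervals of Vnn1, Acot12 and Acot13 do not reach 0, and those of Acot3 and Acot1 are the widest.

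Vnn1 had the smallest p of the members. Its level was 50.5, 65.6 and 57.9 CPM in the DEHP livers, against 32.0, 35.9 and 24.1 CPM in the control livers. The groups did not overlap, and the lowest DEHP library stood above the highest control. The means were 58.0 ± 7.54 CPM with DEHP and 30.7 ± 6.01 CPM in controls (SD, n = 3 each), from 499, 752 and 682 counts with DEHP and 452, 454 and 272 in controls. The log2 fold change was 0.92 ± 0.21 (SE; 95% interval 0.48 to 1.36), a 1.89-fold difference, with an edgeR adjusted p of 0.138. DESeq2 gave an adjusted p of 0.0105, and over all 15 alternatives the adjusted p ran from 0.00208 with no low-count filter to 0.498 without DEHP replicate 2. Control replicate 3, the control with low interferon and macrophage marker sums, had the lowest level of all. Without control replicates 1 and 2, which carried the high marker sums, the log2 fold change of Vnn1 was 1.28. That fit kept 1 control library, the one with the lowest Vnn1 level, so a larger value followed. It was chosen after the data were seen and is no test of the part of those markers. The table places Vnn1 at chr10:22466273-22484614 on the plus strand.

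Vnn3, the neighbouring vanin gene, gave other values. It had 122, 126 and 146 CPM with DEHP, against 223, 135 and 130 CPM in controls, and these groups overlapped. Its log2 fold change was -0.31 ± 0.23 (SE), with an edgeR adjusted p of 0.599. The ratio of Vnn3 to Vnn1 counts was 2.41, 1.92 and 2.52 with DEHP and 6.96, 3.76 and 5.40 in controls, a comparison chosen after the values were seen. The reading frames of Vnn1 and Vnn3 were 69.1% identical over aligned bases and shared no 100-base stretch.

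Acot12, which hydrolyses acetyl-CoA in the cytosol of hepatocytes, was the other member whose call depended on the method. It had 148, 197 and 186 CPM with DEHP, against 79.5, 114 and 119 CPM in controls. The groups did not overlap, and control replicate 1 was the lowest library. The means were 177 ± 25.9 CPM with DEHP and 104 ± 21.6 CPM in controls (SD, n = 3 each), from 1462, 2263 and 2194 counts with DEHP and 1122, 1443 and 1346 in controls. Acot12 had a log2 fold change of 0.77 ± 0.21 (SE; 95% interval 0.31 to 1.22), a 1.70-fold difference, with an edgeR adjusted p of 0.189. DESeq2 gave 0.0340. Setting aside the fit with 1 control, the adjusted p over the alternatives ran from 0.0156 with no low-count filter to 0.607 without DEHP replicate 2. In that fit, without control replicates 1 and 2, the log2 fold change of Acot12 was 0.59, the lowest of the 15 alternatives. The fit was chosen after the data were seen. The table places Acot12 at chr13:95888453-95939959 on the plus strand. An antisense RNA that overlaps it, 4833422C13Rik, had 9 to 22 counts, far below Acot12.

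Promoter windows of 250 bases before to 50 bases after the annotated start were read from RefSeq (GRCm38.p6) for the 8 members with an entry, that is all but Acot13 and Vnn1. They were searched on both strands for the direct repeat AGGTCA, any base, AGGTCA, which PPARalpha and its partner RXR are known to bind, allowing 2 mismatches, and for a single AGGTCA. Acot12 and Acot4 held a repeat match; the best match in the other windows had 3 to 5 mismatches. Both windows are shown because they are the members with a match, and capitals mark it. It lies on the minus strand, begins at position -110 from the start in Acot12 with 1 mismatch, and at -13 in Acot4 with 2 mismatches. In each the single AGGTCA overlaps the repeat, and Acot3 also held a single AGGTCA. The Acot12 window is chr13:91741271-91741570 and the Acot4 window chr12:84038129-84038428, both on the plus strand.
Acot12: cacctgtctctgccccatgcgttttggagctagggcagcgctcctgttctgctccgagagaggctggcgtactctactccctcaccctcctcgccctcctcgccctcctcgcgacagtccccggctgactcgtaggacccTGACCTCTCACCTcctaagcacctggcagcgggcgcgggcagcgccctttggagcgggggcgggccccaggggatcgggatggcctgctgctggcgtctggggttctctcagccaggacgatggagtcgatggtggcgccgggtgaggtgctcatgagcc
Acot4: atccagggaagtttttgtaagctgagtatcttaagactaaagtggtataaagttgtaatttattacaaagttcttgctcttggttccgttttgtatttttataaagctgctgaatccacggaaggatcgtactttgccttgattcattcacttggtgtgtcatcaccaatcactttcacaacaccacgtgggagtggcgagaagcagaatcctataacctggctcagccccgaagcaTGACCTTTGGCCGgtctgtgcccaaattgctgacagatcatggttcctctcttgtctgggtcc
Of 32851 mouse promoter windows, 0.554% held the repeat with at most 1 mismatch, 3.86% with at most 2, and 16.3% the single AGGTCA. A match describes the letters only, and these libraries hold no binding data.

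Acot13 (Them2), a small thioesterase that associates with phosphatidylcholine transfer protein, had 88.6, 94.5 and 71.4 CPM with DEHP, against 65.9, 65.6 and 58.7 CPM in controls. Its groups did not overlap, although DEHP replicate 3 stood close to the controls. The means were 84.8 ± 12 CPM with DEHP and 63.4 ± 4.10 CPM in controls (SD, n = 3 each). This gave a log2 fold change of 0.42 ± 0.19 (SE; 95% interval 0.02 to 0.82), with an edgeR adjusted p of 0.371. It lies at chr13:23109626-23123021 on the minus strand in the table.

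**Figure D2:**
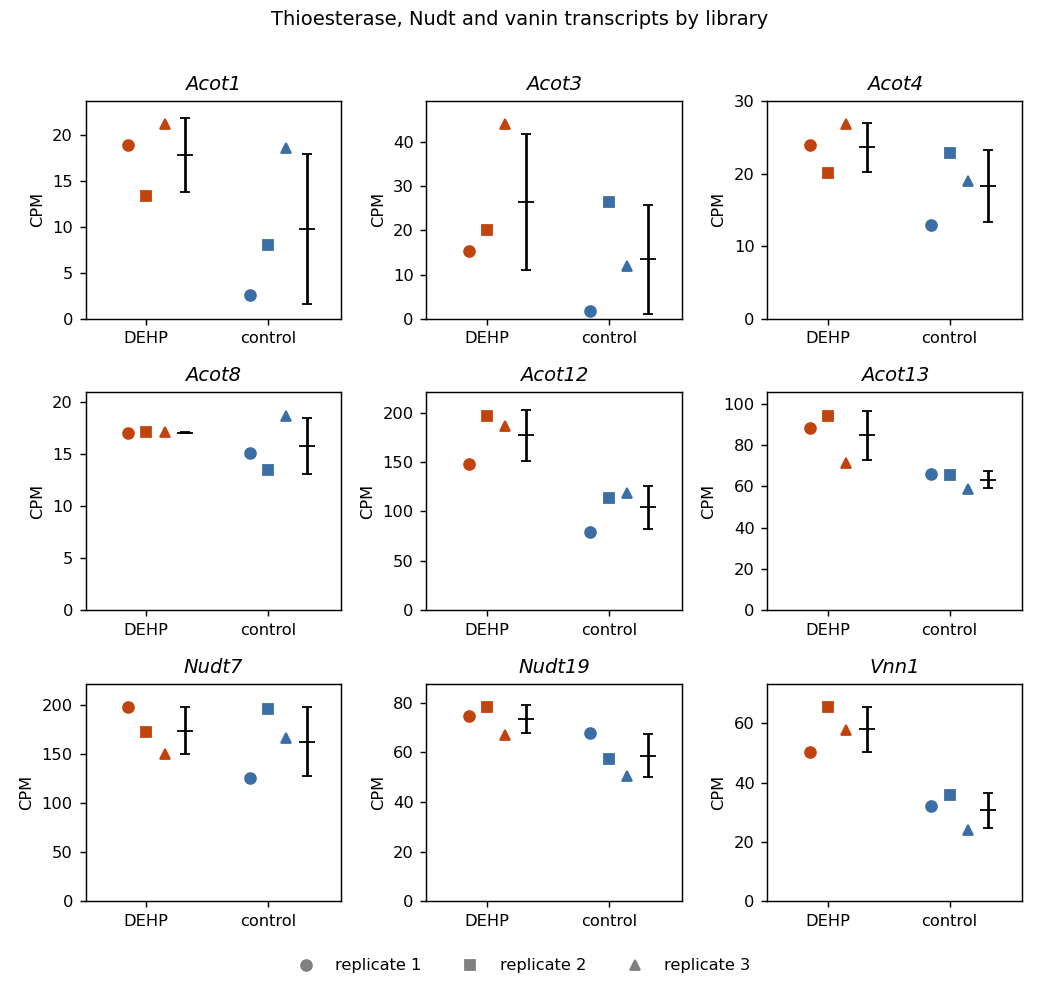
CPM of each of the 9 measured members (vertical axes, each from 0) in the 3 DEHP and the 3 control libraries, each point a library, with the group mean and SD. Vnn1, Acot12 and Acot13 have no overlap between groups; Acot1 and Acot3 spread over 2.55 to 18.6 CPM and 1.84 to 26.6 CPM among the controls.

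Acot1 hydrolyses long-chain acyl-CoA in the cytosol and belongs to a cluster of type I thioesterase genes on chromosome 12. It had 18.8, 13.3 and 21.2 CPM with DEHP, against 2.55, 7.98 and 18.6 CPM in controls. Control replicate 3 lay among the DEHP libraries, and control replicate 1 was 7.29-fold below it. The means were 17.8 ± 4.01 CPM with DEHP and 9.71 ± 8.17 CPM in controls (SD, n = 3 each), from 186, 153 and 249 counts with DEHP and 36, 101 and 210 in controls. With all libraries, the log2 fold change was 0.88 ± 0.64 (SE; 95% interval -0.64 to 2.40), with an edgeR adjusted p of 0.618. Without control replicate 3 it was 1.78 ± 0.42 (SE) and passed at an adjusted p of 0.0274, when 0.946% of all genes were called higher. Acot1 was then the sole member called. Without control replicates 1 and 2 its log2 fold change was -0.056, the lowest of the 15 alternatives. That fit kept 1 control library and was chosen after the data were seen. The controls with little Acot1 were those with high interferon and macrophage marker sums, and the part of those markers in the result was not tested.

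Acot2, the mitochondrial relative of Acot1, could be followed only through a locus that the table leaves unnamed and describes as Acot2, at chr12:87074376-87093828, next to Acot1 at chr12:87108649-87124941, both on the plus strand. This locus had 17.1, 12.2 and 17.4 CPM with DEHP, against 3.40, 7.03 and 14.7 CPM in controls. The groups overlapped through control replicate 3, as for Acot1. The means were 15.6 ± 2.92 CPM with DEHP and 8.38 ± 5.77 CPM in controls (SD, n = 3 each). In a fit with the unnamed loci added, its log2 fold change was 0.91 ± 0.44 (SE), with an edgeR adjusted p of 0.411. Across the 6 libraries its log2 CPM had a Pearson r of 0.993 with Acot1. The ratio of its counts to Acot1 counts was 0.909, 0.915 and 0.823 with DEHP and 1.33, 0.881 and 0.790 in controls.

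Whether reads of the pair can be separated depends on their sequence. The longest reading frames of Acot1 and Acot2 in GENCODE M21 (GRCm38) were 95.5% identical over aligned bases, and 16.3% of the 100-base windows of the Acot1 transcripts also occurred in Acot2. The counts of both are therefore uncertain where the counting could split such reads. Both extremes are shown, read along the plus strand of chromosome 12. At one end is the 60-base stretch with the most differences, 13 in all, at bases 823 to 882 of the Acot1 frame and 946 to 1005 of the Acot2 frame, with differing bases in capitals.
Acot1: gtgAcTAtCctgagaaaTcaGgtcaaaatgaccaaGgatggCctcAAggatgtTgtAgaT
Acot2: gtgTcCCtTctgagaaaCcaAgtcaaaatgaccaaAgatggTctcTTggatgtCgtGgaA
At the other is the longest identical run, 273 bases, at bases 887 to 1159 of the Acot1 frame and 1010 to 1282 of the Acot2 frame, in which a read carries no letter that tells the genes apart.
Acot1 and Acot2: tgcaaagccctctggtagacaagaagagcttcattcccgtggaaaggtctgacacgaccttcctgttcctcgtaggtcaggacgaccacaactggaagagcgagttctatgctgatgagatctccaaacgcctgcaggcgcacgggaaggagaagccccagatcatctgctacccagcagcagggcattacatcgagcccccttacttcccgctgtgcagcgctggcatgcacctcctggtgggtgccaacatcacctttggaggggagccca
The other pairs were less alike, at 84.0% for Acot1 and Acot3, 77.3% for Acot1 and Acot4, and 75.9% for Acot3 and Acot4. Acot8, Acot12, Acot13, Nudt7, Nudt19 and Vnn1 shared no 100-base window with any other gene compared.

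The peroxisomal members of the cluster are Acot3, a medium- and long-chain thioesterase, and Acot4, which acts on succinyl-CoA. Acot3 had 15.4, 20.1 and 44.1 CPM with DEHP, against 1.84, 26.6 and 11.9 CPM in controls. The groups overlapped, and the controls alone spread 14.4-fold. The means were 26.5 ± 15.4 CPM with DEHP and 13.4 ± 12.4 CPM in controls (SD, n = 3 each). The log2 fold change was 0.99 ± 1.00 (SE; 95% interval -1.67 to 3.65), the largest value among the members and the least precise, with an edgeR adjusted p of 0.739. Control replicates 1 and 2, alike in their marker sums, held the lowest and the highest Acot3 level among the controls. Acot3 lies at chr12:87163925-87172555 on the plus strand.

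Acot4 had 24.0, 20.1 and 26.8 CPM with DEHP, against 13, 22.9 and 19.0 CPM in controls. The groups overlapped, with control replicate 2 above DEHP replicate 2. The means were 23.6 ± 3.41 CPM with DEHP and 18.3 ± 5.01 CPM in controls (SD, n = 3 each). Acot4 had a log2 fold change of 0.37 ± 0.24 (SE; 95% interval -0.15 to 0.90), with an edgeR adjusted p of 0.550. Acot4 lies at chr12:87145143-87153098 on the plus strand. The row 4732463B04Rik, on the opposite strand across parts of Acot3 and Acot4, had 1 to 17 counts per library.

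Summed over the 5 rows of the cluster that carry a symbol (Acot1 and Acot3 to Acot6), the level was 59.0, 55.2 and 95.2 CPM with DEHP, against 18.6, 59.0 and 50.2 CPM in controls. The groups overlapped, since control replicate 2 matched DEHP replicate 1. The means were 69.8 ± 22.1 CPM with DEHP and 42.6 ± 21.3 CPM in controls (SD, n = 3 each), a ratio of 1.64. With the unnamed loci described as cluster genes added, which makes the sum less dependent on how reads were split, the ratio was 1.66. The makeup differed from library to library. Acot1 gave 31.9%, 24.2% and 22.2% of the 5-row counts with DEHP and 13.7%, 13.5% and 37.0% in controls, and Acot3 gave 26.1%, 36.3% and 46.3% with DEHP and 9.92%, 45.0% and 23.6% in controls. Control replicate 2 thus had a large Acot3 share with a small Acot1 share, and control replicate 3 a large Acot1 share. Acot5 and Acot6 added little: Acot5 had 0 to 6 counts per library and was not tested, and Acot6 had a log2 fold change of 0.82 ± 0.67 (SE, edgeR adjusted p = 0.644).

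**Figure D3:**
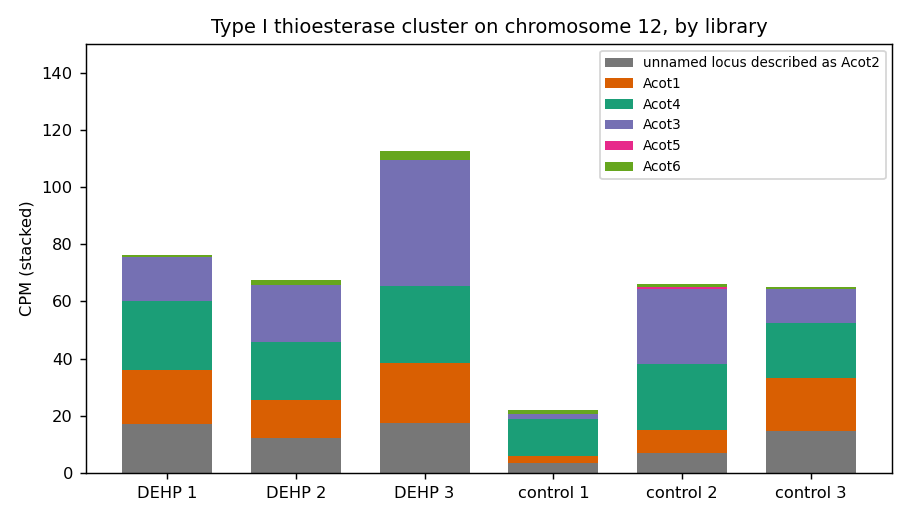
Stacked CPM (vertical axis, from 0) of the type I thioesterase genes of chromosome 12 and of the unnamed locus described as Acot2, in each DEHP and control library (horizontal axis). DEHP replicate 3 has the tallest stack and control replicate 1 the shortest; the Acot1 and unnamed segments are small in control replicates 1 and 2.

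Acot8, the broad-range peroxisomal thioesterase, had 17.0, 17.1 and 17.1 CPM with DEHP, against 15.1, 13.4 and 18.7 CPM in controls. The DEHP libraries were nearly equal and lay inside the range of the controls. The means were 17.1 ± 0.0444 CPM with DEHP and 15.7 ± 2.69 CPM in controls (SD, n = 3 each). The log2 fold change was 0.12 ± 0.22 (SE; 95% interval -0.36 to 0.60), with an edgeR adjusted p of 0.866, so the interval holds anything between a 0.777-fold and a 1.51-fold level. Acot8 lies at chr2:175222666-175238297 on the minus strand and overlaps Snx21 on the other strand, which had 136 to 329 counts per library. With the strand setting of the counting not given in the sources used here, reads in that overlap are uncertain.

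The 2 CoA diphosphatases gave different levels. Nudt7 had 198, 172 and 150 CPM with DEHP, against 126, 196 and 167 CPM in controls. The groups overlapped throughout, and the means were 174 ± 23.9 CPM with DEHP and 163 ± 35 CPM in controls (SD, n = 3 each). The log2 fold change was 0.09 ± 0.21 (SE; 95% interval -0.35 to 0.54), with an edgeR adjusted p of 0.893, and it was -0.061 without control replicate 1. Nudt7 lies at chr8:121105947-121126911 on the plus strand.

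Nudt19 had 74.8, 78.3 and 67.1 CPM with DEHP, against 67.9, 57.2 and 50.7 CPM in controls. The groups overlapped only where control replicate 1 exceeded DEHP replicate 3. The means were 73.4 ± 5.74 CPM with DEHP and 58.6 ± 8.69 CPM in controls (SD, n = 3 each). Nudt19 had a log2 fold change of 0.32 ± 0.19 (SE; 95% interval -0.08 to 0.73), with an edgeR adjusted p of 0.488. Nudt19 lies at chr7:36662573-36671692 on the minus strand. Per kilobase of the gene length in the table, the ratio of Nudt7 to Nudt19 was 1.26, 1.05 and 1.07 with DEHP and 0.886, 1.63 and 1.57 in controls. By this measure Nudt7 stood above Nudt19 in every library but control replicate 1.

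Levels were compared between genes as CPM per kilobase of the gene length in the table. It is labelled only as gene length, so the order of levels depends on how that length was defined. Averaged over the 6 libraries, Acot13 stood first at 103, followed by Acot12 at 42.8, Nudt7 at 29.9, Nudt19 at 24.6 and Vnn1 at 18.4. The cluster genes and Acot8 were lower, with Acot1 at 10.3, Acot4 at 8.36, Acot8 at 8.23 and Acot3 at 7.68. Acot13 was the one gene whose range over libraries, 81.4 to 131, lay clear of its neighbour's, 24.1 to 59.9 for Acot12. All other neighbours in this order had overlapping ranges, and Acot4 exceeded Acot8 in 3 of 6 libraries.

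The members also differed in how far libraries of a group lay apart. The biological coefficient of variation, the spread between replicates beyond counting error, was 81.1% for Acot3 and 52.9% for Acot1. It was 19.6% to 22.5% for the other 7 members. These values were fitted gene by gene. The 27.8% fitted as a single common value for all genes is another measure and no average of them. Across the 6 libraries the log2 CPM of Acot3 and Acot4 had a Pearson r of 0.95, Acot13 and Nudt19 0.90, Acot13 and Vnn1 0.86, and Acot12 and Vnn1 0.81. Nudt7 and Nudt19 had an r of -0.04. These values describe 6 libraries that share the exposure contrast and their depth. Among 9167 genes with a mean of at least 5 CPM, those most like Acot1 were Adcy9, Orai1, Tti1, Fbxo31 and Yipf3 (r of 0.982 to 0.987), and those most like Vnn1 were Acacb, Id2, Ube2r2, Akr1c19 and Smim8 (r of 0.987 to 0.995). They are the highest of 9167 values over 6 libraries. Whether unrelated genes would reach such values was not tested.

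Leaving out each library in turn moved Acot1 and Acot3 most. The log2 fold change of Acot1 was 0.42 when control replicate 1 was left out and 1.78 when control replicate 3 was. That of Acot3 was 0.41 when DEHP replicate 3 was left out and 1.97 when control replicate 2 was. Vnn1 kept to 0.80 to 1.05 and Acot12 to 0.60 to 0.90. The groups did not overlap for these 2 genes, so such fits were no test of the direction. Acot13 ran from 0.35 to 0.53, Nudt19 from 0.25 to 0.45, Acot4 from 0.17 to 0.57 and Acot8 from 0.02 to 0.28. Among the members only Nudt7 fell below 0, to -0.061 without control replicate 1.

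**Figure D4:**
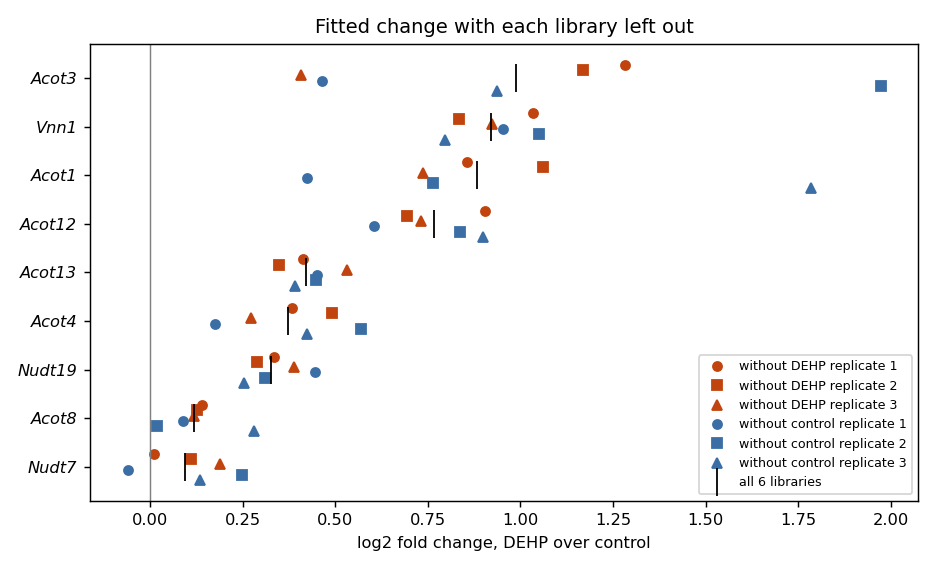
Log2 fold change of DEHP over control (horizontal axis) for each measured member (vertical axis) with each library left out in turn (symbols) and with all 6 libraries (vertical ticks). Vnn1 stays within 0.80 to 1.05, while Acot1 and Acot3 reach 1.78 and 1.97 when 1 control library is left out.

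Other genes of acyl-CoA and CoA metabolism were examined in 7 lists, in which 0 genes passed the edgeR threshold with all libraries. The counts per list are to be read against all tested genes, of which 6.11% were higher and 6.97% lower at an unadjusted p under 0.05. DESeq2 called 0.938% of all genes higher, and edgeR without control replicate 3 called 0.946% higher. Of 9 tested genes in the list of other thioesterases (of 14 named), 1 was higher at an unadjusted p under 0.05 (Acot9) and 0 lower. The median log2 fold change was 0.35, which is the value of Mcat, a transferase that the list also holds. The most abundant was Baat, which conjugates bile acids to taurine and glycine, at 342 ± 14.2 CPM with DEHP and 295 ± 17.5 CPM in controls (SD, n = 3 each; edgeR adjusted p = 0.659). Mcat, the mitochondrial malonyl transferase, averaged 30.1 ± 5.18 CPM with DEHP and 23.6 ± 3.93 CPM in controls. Acot7, a cytosolic thioesterase known for its high level in brain, averaged 29.5 ± 3.29 CPM with DEHP and 22.5 ± 3.78 CPM in controls.

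Of 12 genes of CoA synthesis and transport, 2 were higher at an unadjusted p under 0.05 (Slc25a16 and Pank3) and 0 lower, with a median of 0.05. Pank1, a pantothenate kinase that opens CoA synthesis, averaged 158 ± 27.9 CPM with DEHP and 108 ± 38.0 CPM in controls (SD, n = 3 each; edgeR adjusted p = 0.393). Coasy, which carries out the last steps, averaged 145 ± 4.46 CPM with DEHP and 140 ± 20.8 CPM in controls. Slc25a16, a mitochondrial carrier, averaged 90.9 ± 7.40 CPM with DEHP and 61 ± 11.6 CPM in controls (edgeR adjusted p = 0.271). Of 8 other genes of CoA and pantetheine breakdown, 1 was higher at an unadjusted p under 0.05 (Nudt12) and 0 lower, with a median of -0.05. Nudt12, a peroxisomal nucleotide hydrolase, averaged 59.5 ± 1.43 CPM with DEHP and 42.5 ± 3.19 CPM in controls (edgeR adjusted p = 0.295). Acp5, an acid phosphatase that macrophages also express, averaged 179 ± 37.6 CPM with DEHP and 207 ± 21.3 CPM in controls (edgeR adjusted p = 0.704).

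Of 20 tested acyl-CoA synthetases and binding proteins (of 25 named), 5 were higher at an unadjusted p under 0.05 (Slc27a1, Slc27a2, Slc27a5, Acsl4 and Acbd5) and 0 lower, with a median of 0.32. The fatty acid transporter and synthetase Slc27a2 averaged 2256 ± 353 CPM with DEHP and 1546 ± 452 CPM in controls (SD, n = 3 each; edgeR adjusted p = 0.354). Its bile acid-activating relative Slc27a5 averaged 1203 ± 133 CPM with DEHP and 774 ± 146 CPM in controls (edgeR adjusted p = 0.237). Acsl1, which activates long-chain fatty acids, had 716, 1048 and 987 CPM with DEHP, against 241, 418 and 862 CPM in controls. As for Acot1, control replicate 3 lay among the DEHP libraries, and the log2 fold change was 0.85 ± 0.43 (SE, edgeR adjusted p = 0.437). Without control replicate 3, edgeR called Acsl1 and Slc27a1 higher, at adjusted p of 0.00426 and 0.0417. DESeq2 with all libraries called Slc27a1 (adjusted p = 0.0393). Of 9 tested carnitine acyltransferases and acyl-CoA importers (of 11 named), 2 were higher at an unadjusted p under 0.05 (Abcd3 and Cpt1a) and 0 lower, with a median of 0.30. Abcd3, a peroxisomal transporter, averaged 452 ± 57.2 CPM with DEHP and 314 ± 101 CPM in controls (SD, n = 3 each). Cpt1a, the mitochondrial gatekeeper of long-chain oxidation, averaged 363 ± 60.7 CPM with DEHP and 259 ± 53.7 CPM in controls. Crot, the peroxisomal carnitine octanoyltransferase, averaged 363 ± 90.1 CPM with DEHP and 262 ± 94.7 CPM in controls. Their edgeR adjusted p were 0.374, 0.366 and 0.501.

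Of 14 tested genes of peroxisomal beta-oxidation (of 16 named), 5 were higher at an unadjusted p under 0.05 (among them Phyh, Ehhadh, Hsd17b4 and Acaa1b) and 0 lower, with a median of 0.39. Phyh, which starts the oxidation of phytanic acid, averaged 3467 ± 754 CPM with DEHP and 2081 ± 189 CPM in controls (SD, n = 3 each; edgeR adjusted p = 0.200). Scp2, a peroxisomal thiolase and lipid carrier, averaged 2557 ± 252 CPM with DEHP and 1981 ± 224 CPM in controls (edgeR adjusted p = 0.439). The genes DESeq2 called included Phyh and Ehhadh, the bifunctional enzyme of the pathway. Without control replicate 3, edgeR called Ehhadh and Acaa1b, a peroxisomal thiolase, at adjusted p of 0.000291 and 0.00204. Of 11 tested PPARalpha-regulated reference genes (of 13 named), 3 were higher at an unadjusted p under 0.05 (Cyp4a14, Pdk4 and Acadm) and 1 lower (Fgf21, a hormone of fasting). Levels of Fgf21 were low, at 1.42, 0.174 and 1.44 CPM with DEHP, against 9.43, 2.21 and 2.39 CPM in controls. Cyp4a14, a fatty acid hydroxylase, averaged 2840 ± 360 CPM with DEHP and 1268 ± 838 CPM in controls (SD, n = 3 each; edgeR adjusted p = 0.303). Its libraries had 2630, 3256 and 2633 CPM with DEHP, against 858, 714 and 2231 CPM in controls, so the groups did not overlap but control replicate 3 stood close to the DEHP libraries. Without control replicate 3 its log2 fold change was 1.88 ± 0.24 (SE, edgeR adjusted p = 0.000131). Pdk4, a kinase that inhibits pyruvate dehydrogenase, also passed without that library, at 2.11 ± 0.45 (SE, edgeR adjusted p = 0.0143), and DESeq2 called it with all libraries (adjusted p = 0.0183). Pdk4 had 5.37, 12.3 and 14.2 CPM with DEHP, against 2.41, 2.61 and 5.41 CPM in controls, and these groups overlapped. Fabp1, the liver fatty acid binding protein, averaged 1378 ± 584 CPM with DEHP and 1471 ± 306 CPM in controls (edgeR adjusted p = 0.921). The list's median was 0.16. Control replicate 3 had low interferon and macrophage marker sums. With it as the only control, the list's median was -0.12. Medians were then 0.11 for peroxisomal beta-oxidation, 0.13 for synthetases and binding proteins and -0.04 for carnitine acyltransferases and importers. Other thioesterases had 0.29, CoA synthesis and transport 0.04 and other breakdown genes -0.02. That fit was chosen after the data were seen, and the part of those markers was not tested. With no low-count filter, the genes of these lists that edgeR called higher included Acsl1, Acsl4, Slc27a1, Ehhadh, Acaa1b, Phyh, Cyp4a14 and Pdk4, against 1.07% of all genes, and Fgf21 was called lower, against 1.34%.

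**Figure D5:**
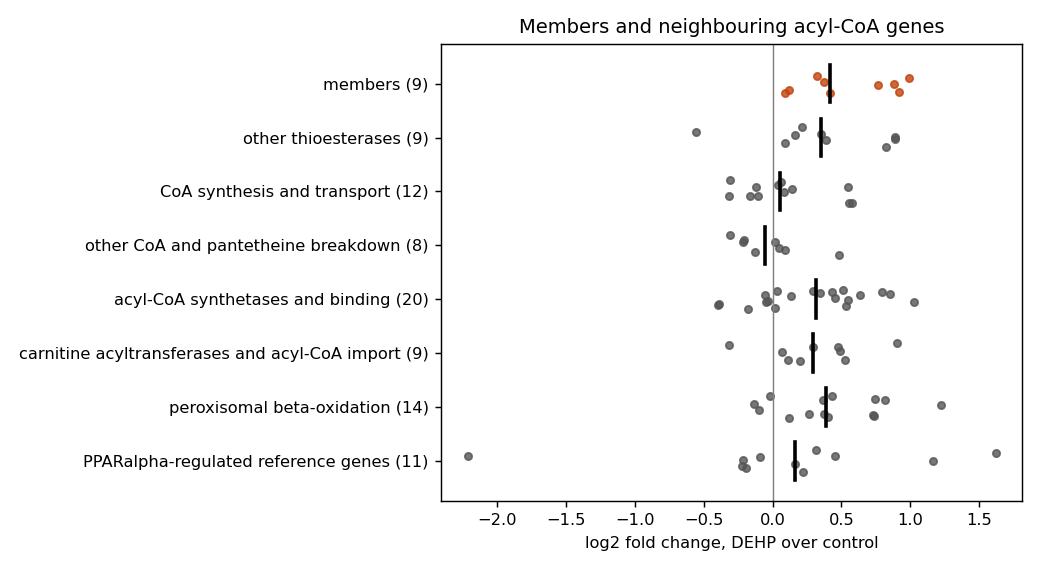
Log2 fold change of DEHP over control (horizontal axis) of each tested gene (points) and the median (black ticks), for the 9 measured members and for 7 lists of acyl-CoA and CoA genes, with the number tested in brackets. Medians run from -0.05 for the other breakdown genes to 0.42 for the members, and each list spans values on both sides of 0 while the members all lie above it. Members and lists were chosen with earlier results of these data known.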

How the data were processed

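Liver mRNA of 3 DEHP and 3 control libraries was sequenced paired-end after dUTP strand marking, per the labels' protocols. The authors deposited raw read counts, 1 whole number per gene and library. GRCm38.p6 is the build in the submitters' processing notes, while gene identifiers and coordinates in the table are those of the C57BL/6NJ strain annotation, so gene coordinates are given as in the table. Aligner, counter and strand setting were not given in the sources used here. Titles alone define the groups, since the series' design text is about bisulfite sequencing of HepG2 cells.

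The test was that of edgeR 4.0.16, run in R 4.3.3 (filterByExpr with a minimum count of 10, TMM scaling, robust quasi-likelihood test, two-sided, Benjamini-Hochberg adjustment over 12468 genes, threshold 0.05). CPM use TMM-scaled totals, and fold changes are log2 of DEHP over control. The 1284 unnamed loci, with 2.73% to 4.28% of counts, stayed out. Alternatives used DESeq2 1.42.0, limma-voom (limma 3.58.1), other filters and scalings, left-out libraries and a replicate block. On simulated data of 12147 genes, 30.9% of 94 genes with a true log2 change of 1 and 83.0% of 94 with one of 2 were recovered.

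Same-numbered libraries had correlations of -0.02, 0.06 and -0.03 between their deviations from the group means, so the numbers were not taken as pairs. Sequences were aligned with Biopython 1.88 in Python 3.11.15. All members are named, with the 3 most abundant tested genes and any called gene of each list (some of these are not reported here), and 5 genes most like Acot1 and Vnn1. Members and lists were chosen with earlier results of these data known.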

Additional observations from a re-analysis of the deposited data

How the results depend on the processing

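With all libraries edgeR called 9 genes and 0 of the 9 measured members. Among genes, 496 were called with no low-count filter, 272 by DESeq2 and 2 by limma-voom; among members, 2 with no filter and 2 by DESeq2, Acot12 and Vnn1 each time. Leaving out each library gave 5 to 400 genes and 0 to 1 members, the highest of both without control replicate 3. The lowest, 5 genes, came without control replicate 1 and without DEHP replicate 3, and 19 were called without DEHP replicate 1. Without control replicates 1 and 2, a comparison chosen after seeing the data, edgeR called 0 genes, with 642 at an unadjusted p under 0.05; the lone control was assumed to vary like the DEHP libraries, Acot1 reversed to -0.056 and Acot8 to -0.12. Nudt7 ran from -0.061 to 0.25 over the left-out libraries, with the reversal without control replicate 1. The cause was not tested. The members' median ran from 0.41 to 0.57, and the log2 ratio of the cluster's summed level from 0.35 to 1.02. A replicate block gave 6 genes, 0 members and a median of 0.41, but the numbers showed no pairing. With 3 libraries a group, differences of 1 on the log2 scale were mostly missed in simulation. The simulation drew genes independently and pooled them, so its rate is not that of these members. The lack of a call does not show that a member did not differ.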

Other observations

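A second locus that the table leaves unnamed, described as Acnat2, a relative of the bile acid conjugating enzyme Baat, had 25.6, 23.0 and 22.1 CPM with DEHP, against 30.3, 38.6 and 45.8 CPM in controls. Every DEHP library lay below every control, as for 8.57% of the 12468 tested genes. The means were 23.6 ± 1.83 CPM with DEHP and 38.3 ± 7.74 CPM in controls (SD, n = 3 each). With the unnamed loci added to the fit, its log2 fold change was -0.69 ± 0.21 (SE), with an edgeR adjusted p of 0.221. The named Acnat2 entry averaged 4.85 ± 1.04 CPM with DEHP and 4.56 ± 0.589 CPM in controls, with an edgeR adjusted p of 0.943. The locus was chosen after its values were seen.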
